A study of Mus musculus with 15 samples.

Results

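The genes of cholesterol synthesis and of its control by the transcription factor SREBP-2 were read in blood of mice whose mothers had drunk tributyltin (TBT), an organotin known as a ligand of RXR and PPAR gamma. The 28 genes were taken by their symbols from a deposited table of 55536 gene rows, and all 28 were found there. They comprise 6 genes of the mevalonate steps, 5 of the prenyl diphosphate and squalene steps, 8 of the sterol steps from lanosterol, 4 of SREBP control and 5 of cholesterol transport and storage. The TBT group held 8 animals whose mothers took in 0.5 mg TBT per kg each day, given at 3.07 µM in drinking water, up to weaning, and the vehicle group held 7 animals with no TBT. All were male C57Bl/6 mice aged 10 months, and each library of total RNA is labelled as a separate sample, taken here as 1 animal, so p-values measure the spread between these samples. A liver tumor is marked in the labels for 1 vehicle animal, vehicle 3, and no litter is named. The comparison asks whether the transcripts of adult offspring differ after exposure of the mother.

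Cholesterol is built from acetyl-CoA through mevalonate, isoprenoid diphosphates, squalene and lanosterol. When sterols are low in the endoplasmic reticulum, the escort protein SCAP carries SREBP-2 to the Golgi, where it is cut and freed to switch on the genes of the pathway. When sterols are plentiful, INSIG proteins hold SCAP and SREBP-2 back. SREBP-2 is known to work at promoters together with the CCAAT-binding factor NF-Y and with Sp1. In blood, mature red cells and platelets have no nucleus, so RNA in them was made earlier, and nucleated white cells can transcribe these genes themselves.

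Promoter windows, from 250 bases before to 50 after a transcript start, were read from RefSeq on GRCm38.p6 for 23 of the 28 genes (29 windows). No window was read for Fdps, Sqle, Fdft1, Stard4 or Npc1. Each motif was searched on both strands. The letters CCAAT, the core of the NF-Y box, stood in at least 1 window of 21 of the 23 genes and in 72.4% of their 29 windows, against 37.5% of 11963 windows of tested genes and 37.4% of all 32851 windows. Acat2 and Scap were the genes without it. The Sp1 core GGGCGG stood in 82.8% of the windows of the 23 genes, against 60.2% of windows of tested genes. The sterol regulatory element in its LDL receptor form stood in no window of the 23 genes and in 0.0418% of windows of tested genes. The looser form TCACNCCAC stood in 1 window, that of Hmgcs1, against 1.12% of windows of tested genes. These matches describe letters in fixed windows, and no binding was measured. Forms that depart from the searched letters were not counted, such as ATCACCCCAT in the Srebf2 stretch below.

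The stretches below are shown because they carry these boxes in genes whose values are given in detail, including the SREBP-2 gene itself. They are read 5′ to 3′ on the gene's strand, end before the transcript start, and have each box in capitals (CCAAT, or ATTGG where it lies on the other strand). The Insig2 stretch holds 2.
Hmgcs1, TCACNCCAC form, plus strand, chr13:119690184-119690252: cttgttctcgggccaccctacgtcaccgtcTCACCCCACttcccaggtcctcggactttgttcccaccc
Hmgcs1, plus strand, chr13:119690276-119690340: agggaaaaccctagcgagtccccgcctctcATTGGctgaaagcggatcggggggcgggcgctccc
Idi1, plus strand, chr13:8885562-8885605: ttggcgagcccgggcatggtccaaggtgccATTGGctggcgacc
Ggps1, minus strand, chr13:14063509-14063573: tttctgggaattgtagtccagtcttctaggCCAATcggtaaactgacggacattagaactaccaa
Ebp, minus strand, chrX:8193533-8193597: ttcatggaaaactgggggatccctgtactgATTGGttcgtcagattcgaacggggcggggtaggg
Srebf2, plus strand, chr15:82147104-82147168: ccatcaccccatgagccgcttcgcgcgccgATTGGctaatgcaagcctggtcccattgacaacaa
Insig1, plus strand, chr5:28071166-28071230: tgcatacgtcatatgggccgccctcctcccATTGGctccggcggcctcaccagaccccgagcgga
Insig2, minus strand, chr1:121332590-121332648: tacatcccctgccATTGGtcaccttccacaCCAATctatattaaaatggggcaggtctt
Soat1, minus strand, chr1:156474329-156474388: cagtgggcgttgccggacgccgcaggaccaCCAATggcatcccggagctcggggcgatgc
The box lay 40 bases before the start in Hmgcs1, 50 in Ggps1 and Ebp, 130 in Srebf2 and 211 in Insig1.

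The libraries held 8496060 to 11985305 gene counts in TBT and 6031530 to 10778347 in vehicle. The 28 genes together took 1379 to 5448 counts of a TBT library and 1852 to 5256 of a vehicle library, so the low genes rest on few counts. The haemoglobin share of the counts ran from 28.7% to 50.8% in TBT and from 28.9% to 44.1% in vehicle. TBT 2 and TBT 8 stood apart: their scaling factors by the trimmed mean of M-values (TMM), which set libraries on a shared scale, were 0.404 and 0.528, against 0.736 to 1.58 in the other 13 libraries. In them 11 erythroid marker genes summed to 553018 and 490593 CPM of all counts (CPM is a count scaled to 1 standard library size), against 311122 to 476364 in the other 13, and 7 B cell markers summed to 229 and 331 CPM, against 771 to 2178. Every marker of the erythroid, platelet, neutrophil, monocyte, B, T and NK cell lists was above 0 in every library. The fold change of TBT over vehicle was positive for 10 of 11 erythroid markers (median 0.28), 6 of 9 platelet (0.04), 6 of 8 neutrophil (0.07), 7 of 7 monocyte (0.25), 0 of 7 B cell (-0.19), 4 of 8 T cell (0.003) and 4 of 6 NK cell markers (0.02), none past the test. Hepatocytes are a main site of cholesterol synthesis, and 0 of their 7 tested markers were positive (median -0.37). The 8 hepatocyte markers summed to 4.79 to 744 CPM of all counts in TBT and 6.25 to 764 in vehicle. Of them Serpina1a was at 0 in 5 libraries, Ttr in 2, and Apoa1, Apoa2 and Fgb in 1 each. The part of these cell types in the results below was not tested. Vehicle 6 had 13.98% of its counts on the small RNA gene Gm23935, and no other library more than 0.441%. Fewer cells of a type and less RNA per cell cannot be told apart in such bulk samples. Levels below are CPM on TMM-scaled library sizes unless another scale is named.

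Blood held these transcripts at very unequal levels. Per kilobase of exon, Ggps1, which encodes geranylgeranyl diphosphate synthase, was the highest at 14.9 ± 7.13 CPM per kilobase (SD over 15 animals), followed by Srebf2 at 7.71 ± 1.16, Npc2 at 6.89 ± 1.03 and Soat1 at 5.77 ± 0.957. Between Soat1 and the next gene, the sterol desaturase gene Sc5d at 2.91 ± 0.515, the animals did not overlap. At the steps above it and at each later step of the order the neighbours overlapped, from Hmgcs1 at 2.47 ± 0.512 down to Fdps at 0.284 ± 0.130. The regulator, storage and lysosomal export genes Srebf2, Soat1 and Npc2 thus had higher mean levels than every enzyme of the sterol chain, and the chain's lowest genes were Fdps, Tm7sf2 (0.287 ± 0.126) and Mvk (0.289 ± 0.142). Fdps shares 1124 of its 4208 exon bases with Gm43738 on the same strand, and Tm7sf2 shares 532 of 4403 with Vps51, which had 1317 counts over all libraries against 202 for Tm7sf2. Reads in those stretches cannot be assigned, so both levels are uncertain.

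**Figure D1:**
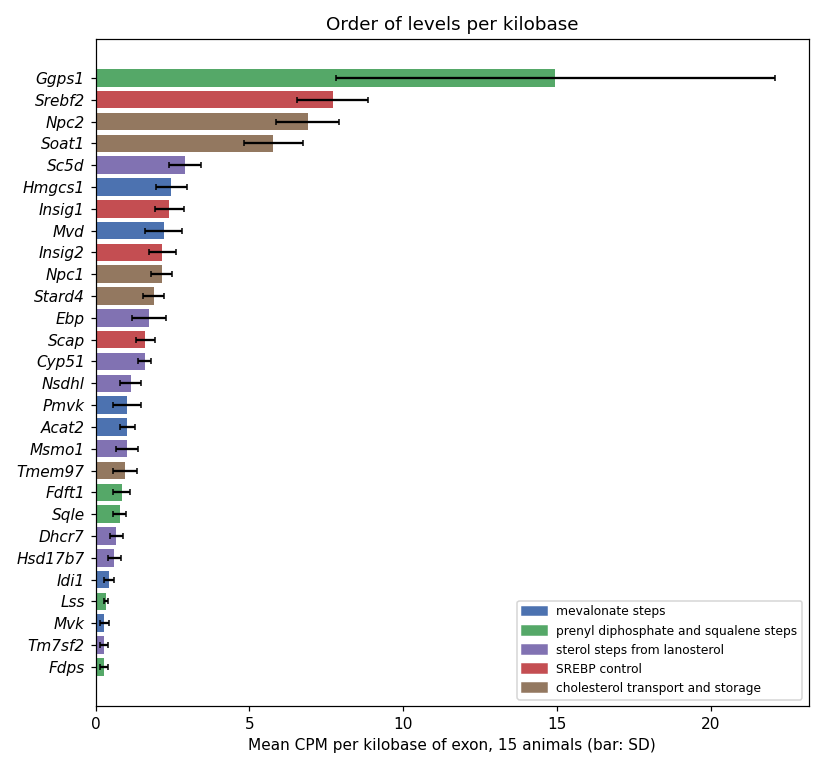
Mean level per kilobase of exon (CPM per kilobase, x axis) of each gene over the 15 animals, with SD bars and the colour giving the gene's role. Ggps1, Srebf2, Npc2 and Soat1 lie at 5.77 to 14.9 and every other gene at 2.91 or less.

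No gene of the pathway differed between TBT and vehicle blood past the test. Of the 28 genes, 26 had enough counts to be tested, and Mvk and Fdps did not. In edgeR's quasi-likelihood test with Benjamini-Hochberg adjustment over all 13364 tested genes, 0 of the 26 passed an adjusted p of 0.05, as did 0 of all genes (0%), and their adjusted p ran from 0.825 to 0.997. At an unadjusted p under 0.05 there were 0 of the 26, against 6.33% of all tested genes (4.57% higher and 1.76% lower in TBT). DESeq2 called 12 genes of the whole table and limma-voom with sample quality weights 22, none of them among the 28. A positive log2 fold change of TBT over vehicle was found in 14 of the 26 (53.8%), against 59.4% of all tested genes, and the median was 0.04, against 0.05 over all tested genes. By group means of CPM on TMM-scaled sizes 15 of the 26 were higher in TBT, and by CPM of all counts 19 (73.1%), against 75.6% of all tested genes. That scale put the median log2 ratio of all tested genes at 0.14, against 0.05 on the TMM scale. The TBT and vehicle animals overlapped in each of the 26, while 0.112% of all tested genes had no overlap.

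All 26 intervals of 95% held 0, with a median half-width of 0.42 on the log2 scale, from 0.23 for Npc2 and Srebf2 to 0.75 for Tm7sf2. For 12 of the 26 the interval lay within 0.5 log2 units of 0 on either side. Animals varied in these genes about as in the rest of the blood transcriptome, with a median biological coefficient of variation of 22.4% against 23.1% over all tested genes.

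**Figure D2:**
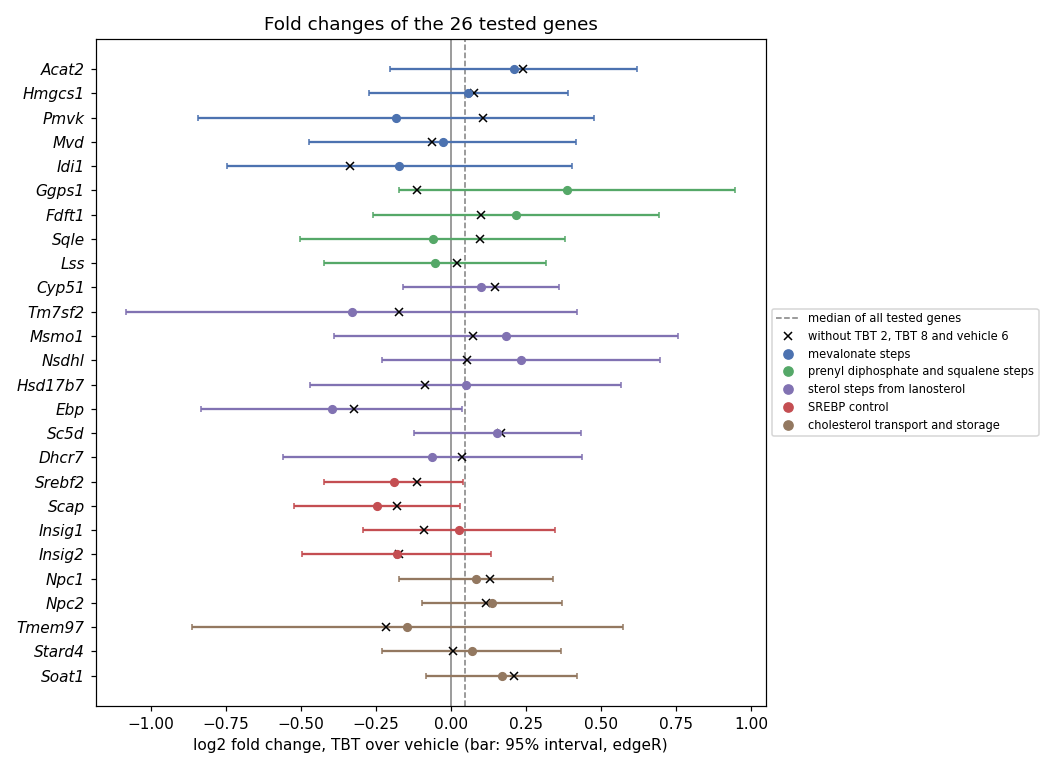
Log2 fold change of TBT over vehicle (x axis) for the 26 tested genes in pathway order, with 95% intervals from edgeR, and crosses for the fit without TBT 2, TBT 8 and vehicle 6. Every interval holds 0, and the crosses of Ggps1, Pmvk, Sqle, Lss, Hsd17b7, Dhcr7 and Insig1 lie on the other side of 0 from their points.

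**Figure D3:**
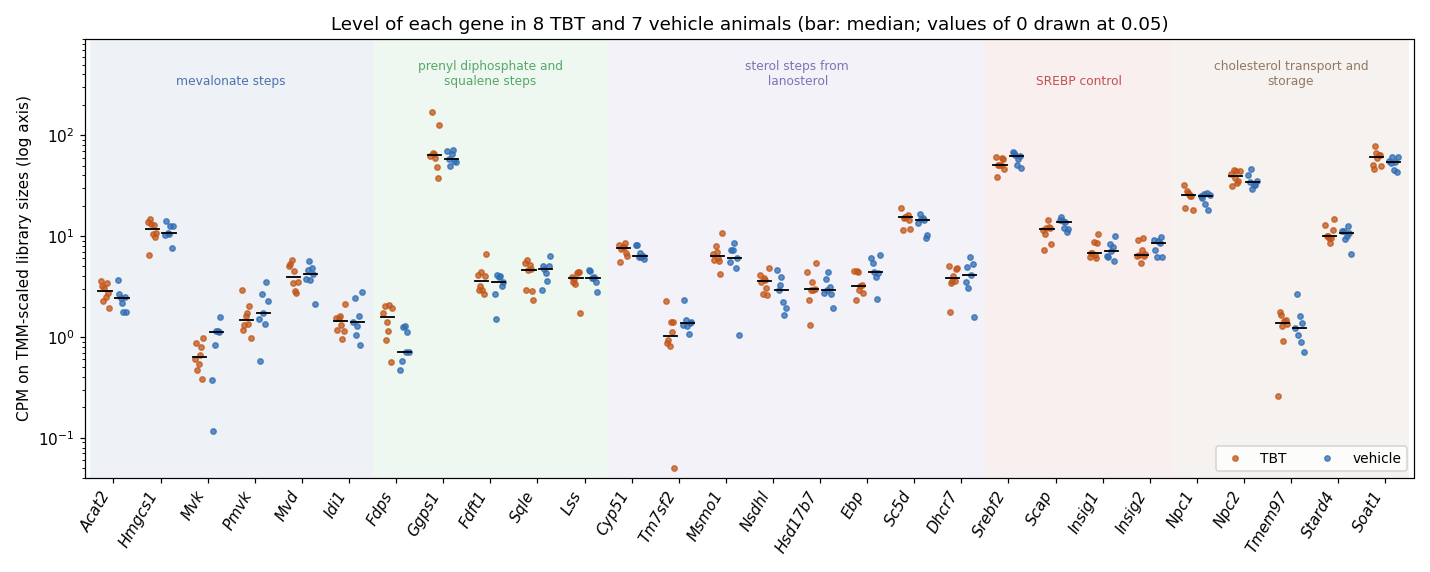
Level of each of the 28 genes (CPM on TMM-scaled library sizes, log axis) in the 8 TBT animals (orange) and the 7 vehicle animals (blue), with a bar at each median and genes in pathway order. The groups overlap in every gene, and Ggps1 has 2 TBT points, TBT 2 and TBT 8, far above the rest.

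Among the mevalonate steps, 2 of 5 tested genes had a positive fold change and 3 a negative one (median -0.03), and 0 passed. Hmgcs1 (ENSMUSG00000093930, chromosome 13, 119690379 to 119708260), the synthase that makes HMG-CoA, was the highest of them. It had a lowest, median and highest level of 6.42, 11.8 and 14.6 CPM in TBT animals, against 7.62, 10.6 and 14.2 CPM in vehicle animals. The ranges lay almost on each other, with TBT 2 the lowest animal and TBT 3 the highest, and the log2 fold change was 0.06 (SE 0.157, 95% interval -0.27 to 0.39, edgeR adjusted p = 0.988). Idi1, the isomerase of isopentenyl diphosphate, had 0.949, 1.44 and 2.12 CPM in TBT and 0.831, 1.41 and 2.80 CPM in vehicle. Its fold change of -0.17 (SE 0.274, edgeR adjusted p = 0.977) rested on 4 to 24 counts per library and was -0.02 without vehicle 7. The thiolase gene Acat2, which makes acetoacetyl-CoA, averaged 2.82 ± 0.574 CPM in TBT and 2.43 ± 0.651 CPM in vehicle, where errors here and below are SDs over 8 TBT and 7 vehicle animals. The kinase gene Pmvk averaged 1.64 ± 0.623 CPM in TBT and 1.93 ± 0.946 CPM in vehicle, and the decarboxylase gene Mvd 4.14 ± 1.18 CPM in TBT and 4.12 ± 1.12 CPM in vehicle. Mevalonate kinase, Mvk, had 1 to 13 counts per library, at 0.660 ± 0.204 CPM in TBT and 0.903 ± 0.504 CPM in vehicle, and was not tested.

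In the prenyl diphosphate and squalene steps 2 of 4 tested genes were positive and 2 negative (median 0.08), and 0 passed. Ggps1 (ENSMUSG00000021302, chromosome 13, 14050659 to 14063488) makes geranylgeranyl diphosphate, a lipid anchor that is attached to many membrane-bound proteins. Its lowest, median and highest levels were 37.9, 63.7 and 170.0 CPM in TBT animals, against 49.5, 57.7 and 71.6 CPM in vehicle animals. TBT 2 at 170.0 and TBT 8 at 125.8 CPM stood above all other animals, whereas TBT 7 and TBT 6, at 37.9 and 48.3 CPM, were the lowest of the 15. The log2 fold change was 0.39 (SE 0.265, 95% interval -0.17 to 0.95, edgeR adjusted p = 0.885). Without TBT 2, TBT 8 and vehicle 6 it was -0.11 (edgeR adjusted p = 0.719), and without TBT 2 alone it was 0.14. As CPM of all counts, before TMM scaling, TBT 2 and TBT 8 had 68.5 and 66.2 CPM of Ggps1, inside the range of 41.1 to 85.6 of the other 13 animals. On that scale Srebf2 had 15.5 and 24.6 CPM in TBT 2 and TBT 8, below the 40.6 to 91.8 of the other 13. TBT 2 and TBT 8 thus had an ordinary share of Ggps1 and a low share of Srebf2 in their RNA. They also had the highest erythroid marker sums, whose part in the Ggps1 difference was not tested.

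**Figure D4:**
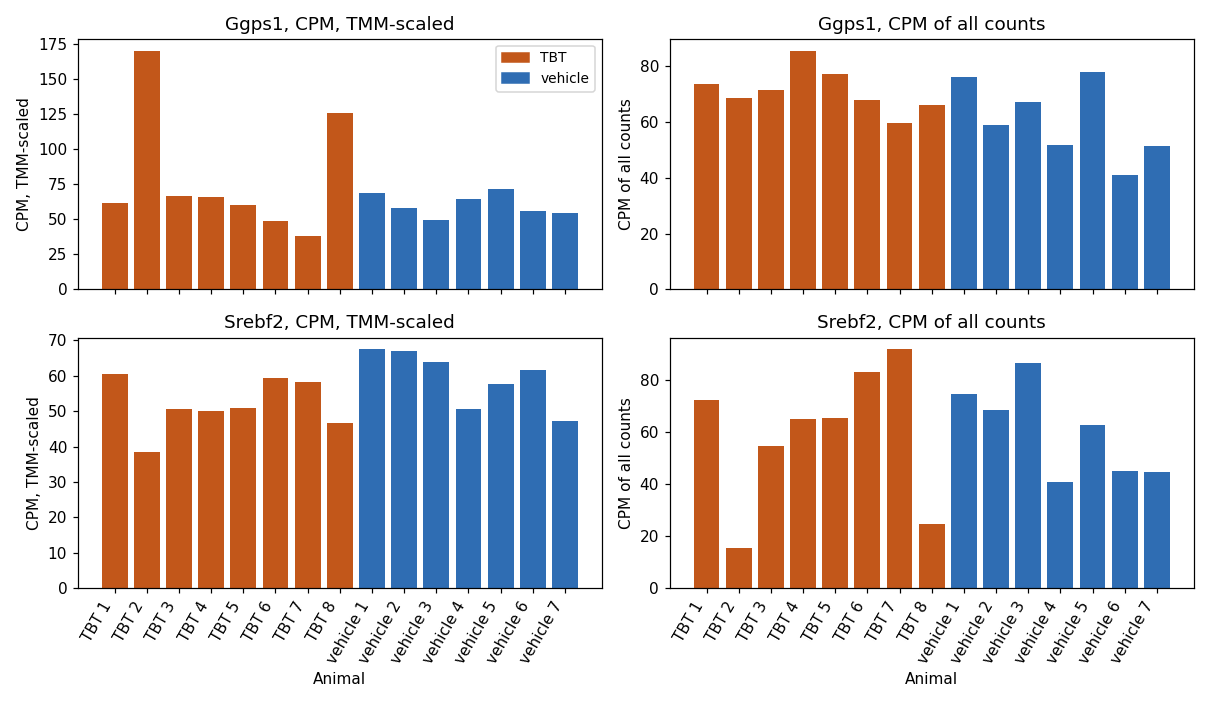
Ggps1 (upper row) and Srebf2 (lower row) in each animal as CPM on TMM-scaled library sizes (left) and as CPM of all counts (right), TBT in orange and vehicle in blue, bars from 0. On the right, TBT 2 and TBT 8 lie within the other animals for Ggps1 (68.5 and 66.2 CPM) and below them for Srebf2 (15.5 and 24.6 CPM).

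Squalene epoxidase, Sqle, a control point of the sterol branch, had 2.31, 4.65 and 5.75 CPM in TBT animals (lowest, median, highest) and 2.92, 4.72 and 6.31 CPM in vehicle animals. Its fold change of -0.06 (SE 0.210, edgeR adjusted p = 0.991) was 0.17 in limma-voom with sample quality weights. Squalene synthase, Fdft1, averaged 3.84 ± 1.27 CPM in TBT and 3.26 ± 0.930 CPM in vehicle, and lanosterol synthase, Lss, 3.67 ± 0.883 CPM in TBT and 3.85 ± 0.618 CPM in vehicle. TBT 8 was the highest animal for Fdft1 (6.56 CPM) and the lowest for Lss (1.74 CPM). Farnesyl diphosphate synthase, Fdps, had 4 to 26 counts per library and was not tested. It stood at 1.48 ± 0.555 CPM in TBT and 0.870 ± 0.331 CPM in vehicle, with 7 of 8 TBT animals above the vehicle median. The groups overlapped, and how many other genes reach 7 of 8 was not counted. In the alternative without a count filter, where Fdps was fitted, it was not called. Fdft1 shares 774 exon bases with Ctsb on the opposite strand, a gene with 82650 counts over all libraries against 552 for Fdft1, and Ggps1 shares 257 with Arid4b. No source names the strand setting of the counting, so reads in these stretches cannot be told apart.

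The 8 sterol genes after lanosterol were all tested, 5 of them positive and 3 negative (median 0.07), and 0 passed. Ebp (ENSMUSG00000031168, chromosome X, 8185329 to 8193512), the sterol isomerase, had the smallest p of the 28 genes and lay lower in TBT. Its lowest, median and highest levels were 2.34, 3.23 and 4.50 CPM in TBT animals, against 2.40, 4.37 and 6.48 CPM in vehicle animals. Vehicle 7, vehicle 1 and vehicle 2 were above all TBT animals, while vehicle 5, at 2.40 CPM, was below all TBT animals but TBT 2. The log2 fold change was -0.40 (SE 0.207, 95% interval -0.83 to 0.04, edgeR adjusted p = 0.825), and it stayed negative with each library left out, from -0.53 to -0.31. Lanosterol demethylase, Cyp51, averaged 7.27 ± 0.989 CPM in TBT and 6.83 ± 0.941 CPM in vehicle and had the smallest biological variation of the 26, at 14.1%. Sc5d averaged 14.9 ± 2.43 CPM in TBT and 13.4 ± 2.53 CPM in vehicle. The methylsterol oxidase gene Msmo1 averaged 6.72 ± 1.91 CPM in TBT and 5.79 ± 2.43 CPM in vehicle, where vehicle 7 had 1.05 CPM. The decarboxylating dehydrogenase gene Nsdhl (3.53 ± 0.757 CPM in TBT, 2.93 ± 1.08 in vehicle), the ketoreductase gene Hsd17b7 (3.21 ± 1.25 in TBT, 3.06 ± 0.794 in vehicle) and Dhcr7, which makes cholesterol in the last step of one branch (3.86 ± 1.06 in TBT, 4.08 ± 1.55 in vehicle), differed by less than the spread between animals. The sterol reductase gene Tm7sf2 averaged 1.10 ± 0.640 CPM in TBT, with 0 counts in TBT 8, and 1.46 ± 0.401 CPM in vehicle.

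Of the 4 SREBP control genes 3 were negative (median -0.19), and 0 passed. Srebf2 (ENSMUSG00000022463, chromosome 15, 82147181 to 82205379), the gene of SREBP-2, had 38.5, 50.8 and 60.6 CPM in TBT animals (lowest, median, highest), against 47.1, 61.5 and 67.5 CPM in vehicle animals. All 8 TBT animals lay below the vehicle median, as they did in 2.19% of all tested genes (in 3.76% all lay above it, and in 0 of the 26), but vehicle 7, vehicle 4 and vehicle 5 lay within the TBT range. The log2 fold change was -0.19 (SE 0.111, 95% interval -0.42 to 0.04, edgeR adjusted p = 0.852), from -0.24 to -0.16 with each library left out and -0.11 without TBT 2, TBT 8 and vehicle 6. As CPM of all counts, Srebf2 averaged 59.1 CPM in TBT and 60.5 CPM in vehicle, so the gap depends on the scaling.

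Scap (ENSMUSG00000032485, chromosome 9, 110333288 to 110384950), the escort of SREBP-2, had 7.30, 11.7 and 14.3 CPM in TBT animals, against 11.1, 13.8 and 15.6 CPM in vehicle animals. TBT 2 and TBT 8 were below every other animal, and 7 of 8 TBT animals lay below the vehicle median. How many other genes have 7 of 8 below it was not counted. The log2 fold change was -0.25 (SE 0.131, 95% interval -0.52 to 0.03, edgeR adjusted p = 0.827), and -0.18 without TBT 2, TBT 8 and vehicle 6. As CPM of all counts, Scap averaged 12.8 CPM in TBT and 13.5 CPM in vehicle, a smaller gap. The retention factor Insig1, itself a SREBP target, had 6.09, 6.77 and 10.4 CPM in TBT animals and 5.68, 7.04 and 9.99 CPM in vehicle animals, a fold change of 0.03 (SE 0.153, edgeR adjusted p = 0.995). Its highest animals were TBT 8 and vehicle 7. The related Insig2 had 5.43, 6.50 and 9.57 CPM in TBT animals and 6.13, 8.52 and 9.84 CPM in vehicle animals, a fold change of -0.18 (SE 0.150, edgeR adjusted p = 0.924). For both genes the ranges of the groups overlapped over most of their length.

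Of the 5 transport and storage genes 4 were positive (median 0.08), and 0 passed. Soat1 (ENSMUSG00000026600, chromosome 1, 156424525 to 156474331), which esterifies cholesterol for storage, had 45.8, 61.4 and 77.9 CPM in TBT animals (lowest, median, highest), against 42.7, 54.7 and 60.3 CPM in vehicle animals. TBT 3, TBT 4, TBT 7 and TBT 6 were above every vehicle animal, and TBT 2, TBT 8 and TBT 1 lay in the lower part of the vehicle range. The fold change of 0.17 (SE 0.120, 95% interval -0.08 to 0.42, edgeR adjusted p = 0.886) was 0.26 in limma-voom (adjusted p = 0.166), the smallest adjusted p of any of the 28 genes in any alternative. Npc1, the lysosomal membrane protein that exports cholesterol, had 17.9, 25.6 and 32.0 CPM in TBT animals and 18.0, 24.9 and 26.5 CPM in vehicle animals (0.08, SE 0.122, edgeR adjusted p = 0.975). Npc2, the soluble partner that hands cholesterol to NPC1, had 31.5, 39.6 and 45.3 CPM in TBT animals and 29.3, 34.3 and 45.8 CPM in vehicle animals (0.14, SE 0.111, edgeR adjusted p = 0.920). The cytosolic sterol carrier gene Stard4 averaged 10.8 ± 2.07 CPM in TBT and 10.3 ± 1.88 CPM in vehicle. Tmem97, whose product binds NPC1 and lowers its level, averaged 1.26 ± 0.475 CPM in TBT and 1.36 ± 0.654 CPM in vehicle, on 3 to 23 counts per library. Npc1 shares 511 exon bases with Rmc1 on the opposite strand.

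**Figure D5:**
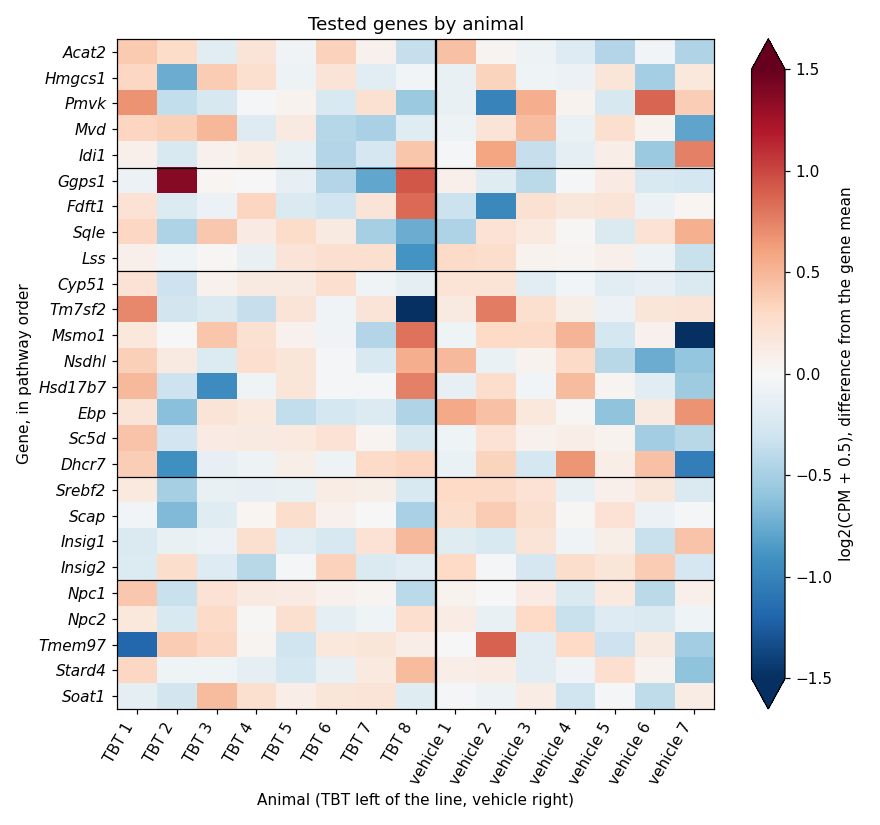
Level of the 26 tested genes in each animal as log2(CPM + 0.5) minus the gene's mean over the 15 animals (colour, limited to 1.5 on either side), TBT left of the line and vehicle right of it. No gene splits at the line, and the strongest colours are Msmo1 in vehicle 7, Tm7sf2 in TBT 8 and Ggps1 in TBT 2.

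The lowest and the highest values were both spread unevenly over libraries of both groups, the highest over 11 of the 15. TBT 8 was the highest of the 15 animals in 6 of the 26 genes and the lowest in 4, and TBT 2, vehicle 6 and vehicle 7 were the lowest in 5 each. TBT 5 and vehicle 5 were neither the highest nor the lowest in any. Vehicle 3, for which a liver tumor is marked, was the highest vehicle animal in 3 of the 26 genes and the lowest in 1, against 2 to 5 and 1 to 11 in the other vehicle animals.

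Ratios within an animal do not depend on the scaling of libraries, and 3 were tested with exact permutation, two-sided, on the 6435 ways to split the animals. The log2 ratio of Insig1 to Insig2 averaged 0.07 ± 0.49 in TBT, against -0.13 ± 0.53 in vehicle, a difference of 0.20 (exact permutation p = 0.455, adjusted over 3 ratios 0.709). It ran from 0.09 to 0.33 with each library left out and was 0.07 without TBT 2, TBT 8 and vehicle 6. That of Npc2 to Npc1 averaged 0.66 ± 0.29 in TBT and 0.59 ± 0.19 in vehicle, a difference of 0.07 (exact permutation p = 0.625, adjusted 0.709), and was above 0 in all 15 animals. That of Tmem97 to Npc1 averaged -4.38 ± 1.04 in TBT and -4.16 ± 0.71 in vehicle, a difference of -0.22 (exact permutation p = 0.709, adjusted 0.709). In none of the 3 did the difference pass the spread between animals. The counts in these ratios are not divided by length.

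Other genes around the pathway gave the same count of calls, 0 in each of 4 lists. At an unadjusted edgeR p under 0.05 there were 1 of 13 isoprenoid genes and 2 of 12 tested fatty acid genes under SREBP-1. The remaining lists had 0, and the share over all tested genes was 6.33%. Of 16 other genes of synthesis, uptake and SREBP processing, 8 were positive and 8 negative (median -0.003). Erlin1, a membrane protein that binds SCAP and INSIG, averaged 13.8 ± 1.43 CPM in TBT and 11.9 ± 1.42 CPM in vehicle (0.21, edgeR adjusted p = 0.784), and Por, the electron donor of CYP51, 14.3 ± 1.40 CPM in TBT and 16.2 ± 3.81 CPM in vehicle (-0.17, edgeR adjusted p = 0.898). Of 13 genes of the isoprenoid branch, 5 were positive and 8 negative (median -0.01). Pdss1, which makes the side chain of coenzyme Q, averaged 6.73 ± 1.55 CPM in TBT and 4.64 ± 1.80 CPM in vehicle (0.51, edgeR adjusted p = 0.743), and Pggt1b, which attaches geranylgeranyl groups to proteins, 41.6 ± 11.9 CPM in TBT and 34.8 ± 3.32 CPM in vehicle (0.25, edgeR adjusted p = 0.853).

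Of 16 tested genes of cholesterol transport, storage and efflux, 11 were positive and 5 negative (median 0.10). The sterol transfer gene Gramd1b averaged 20.0 ± 2.61 CPM in TBT and 17.5 ± 1.87 CPM in vehicle (0.19, edgeR adjusted p = 0.825), and Nr1h2, the oxysterol receptor LXR beta, 23.8 ± 4.72 CPM in TBT and 27.1 ± 1.89 CPM in vehicle (-0.19, edgeR adjusted p = 0.852). Of 12 tested fatty acid genes under SREBP-1, 8 were positive and 4 negative (median 0.10). Acss2, which makes acetyl-CoA from acetate, averaged 15.3 ± 2.53 CPM in TBT and 12.5 ± 1.40 CPM in vehicle (0.28, edgeR adjusted p = 0.731), and fatty acid synthase, Fasn, 22.3 ± 3.61 CPM in TBT and 26.3 ± 3.20 CPM in vehicle (-0.24, edgeR adjusted p = 0.777). These 2 genes of a single lipid route thus had fold changes of opposite sign, neither past the test.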

How the data were processed

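Blood RNA of 15 mice was sequenced from RNeasy-isolated, DNase-treated RNA with the TruSeq Stranded Total RNA kit, per the labels' protocols. Per the submitters' processing notes, Trim Galore, HISAT2 and featureCounts were used with build mm10. The table the authors deposited holds raw read counts per gene, 1 column per animal. Versions, annotation and strand setting were not given in the sources used here. Columns were matched by sample description. All 55536 identifiers had coordinates and exon lengths in GENCODE M21 (GRCm38).

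Genes were kept by filterByExpr (13364) and fitted with edgeR 4.0.16 in R 4.3.3: TMM, robust quasi-likelihood test, no covariate, Benjamini-Hochberg adjustment at 0.05. Standard errors come from the F statistic. Alternatives were DESeq2 1.42.0, limma 3.58.1, other scalings, no filter, a replicate block and libraries left out. Levels as CPM of all counts were added after seeing the data. Ratios were log2 of counts plus 0.5. The lowest chi-square per gene between libraries of a group was 11.6, so each was kept as 1 animal.

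The members and lists were chosen with earlier results of these data known. By the rule for named genes, all 28 are named, 10 fixed genes, the 6 with the smallest p and the 3 highest per kilobase have values by animal, and each other list gives its 2 genes with the smallest p.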

Additional observations from a re-analysis of the deposited data

Results flagged for a closer look

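Among 68 groups of values looked at, 5 held an animal far from the rest of its group, where chance alone marks about 5% of groups. Fdft1 stood at 6.56 CPM in TBT 8, Lss at 1.74 CPM in TBT 8 and Tm7sf2 at 2.32 CPM in vehicle 2. The log2 ratio of Npc2 to Npc1 was 1.30 in TBT 8, and that of Tmem97 to Npc1 was -6.73 in TBT 1, where Tmem97 had 3 counts.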

How the results depend on the processing

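Over 23 alternatives, 0 of the 28 genes was called in any, and 15 of the 26 tested kept their sign in every alternative (Acat2, Idi1, Fdft1, Cyp51, Tm7sf2, Msmo1, Nsdhl, Ebp, Sc5d, Srebf2, Scap, Insig2, Npc1, Npc2 and Soat1). Sizes held less well: with 1 library left out, 22 of the 26 moved by over 1.5 times, all but Ebp, Srebf2, Scap and Npc2, and without vehicle 7 Idi1 stood at -0.02 and Msmo1 at 0.02. The cause of the sign changes below was not tested. The whole table gave 2 calls (4678 genes at an unadjusted p under 0.05) without a count filter, 12 (1622) in DESeq2, 22 (2669) in limma-voom and 7 (2305) without TBT 2, TBT 8 and vehicle 6. In that last fit log2 fold changes turned to 0.11 for Pmvk, -0.11 for Ggps1, 0.10 for Sqle, 0.020 for Lss, -0.085 for Hsd17b7, 0.038 for Dhcr7 and -0.090 for Insig1, and the Npc2 to Npc1 difference to -0.00503. Its counts of positive genes were 4 (prenyl and squalene), 0 (SREBP control), 4 (other synthesis, uptake and processing) and 8 (isoprenoid). Such counts take in every listed gene that was fitted in an alternative. The 4 prenyl and squalene genes there thus include Fdps, which the main fit did not test. In limma-voom fold changes turned to 0.046 for Pmvk, -0.013 for Ggps1, 0.17 for Sqle, -0.083 for Hsd17b7 and -0.088 for Stard4, with 5 fatty acid genes positive. With upper-quartile scaling Insig1 stood at -0.0010 and 0 SREBP control genes were positive. Same-numbered animals of the groups correlated at -0.23 to 0.51. Only for number 3 was this value (0.51) above the highest with another number (0.15). These correlations cannot tell whether the numbers name pairs of animals. With the replicate block (TBT 8 left out) fold changes turned to 0.016 for Mvd, 9.46e-05 for Sqle, 0.030 for Lss, -0.11 for Hsd17b7, -0.068 for Insig1 and -0.0039 for Stard4, the Npc2 to Npc1 difference to -0.018, and 4 prenyl and squalene, 0 SREBP control and 5 other synthesis genes were positive.

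With each library left out in turn, fold changes ran from -0.015 to 0.12 for Hmgcs1, -0.35 to 0.0041 for Pmvk, -0.13 to 0.052 for Mvd, -0.15 to 0.026 for Sqle, -0.11 to 0.018 for Lss, -0.091 to 0.18 for Hsd17b7, -0.19 to 0.066 for Dhcr7, -0.060 to 0.11 for Insig1, -0.24 to 0.10 for Tmem97 and -0.015 to 0.12 for Stard4. The ratio differences ran from -0.018 to 0.11 for Npc2 to Npc1 and from -0.37 to 0.12 for Tmem97 to Npc1, and positive genes from 2 to 4 of the prenyl and squalene steps and from 0 to 1 of SREBP control. Fdps enters the prenyl and squalene counts where it was fitted. Depth limits the genes under about 2 CPM, which rest on a few counts in the shallow libraries.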

Other observations

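Ctsb, which overlaps Fdft1, stood at 954 to 1370 CPM on the TMM scale in TBT 2 and TBT 8, against 252 to 781 CPM in the other 13 animals. Arid4b, which overlaps Ggps1, stood at 51.9 to 78.0 CPM in these 2 animals, against 58.9 to 84.5 CPM. As CPM of all counts, Ctsb had 502 to 552 CPM in TBT 2 and TBT 8, within the 300 to 839 CPM of the other 13. On that scale Arid4b had 27.3 to 31.4 CPM in them, below the 55.5 to 126 CPM of the other 13.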
